A study of Mus musculus with 6 samples.

Results

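The respiratory chain of the inner mitochondrial membrane is built from 5 complexes. The nuclear genes for their subunits are described here in cells sorted as neurons from the cortex around a stroke, with markers of other cell types also present. The genes were taken by name: Nduf genes for complex I, Sdh genes for complex II, Uqcr genes for complex III, Cox4 to Cox8 genes for complex IV and Atp5 genes for complex V. Of 24419 gene symbols in the table, 84 had such a name, and 79 of them had a mean of at least 1 CPM (reads relative to the total of a library, with a scaling factor between libraries) over the 6 libraries. These 79 genes hold 36 of 37 for complex I, 4 of 4 for complex II, 8 of 8 for complex III, 14 of 18 for complex IV and 17 of 17 for complex V. The names follow history rather than structure, so that Ndufa4, Ndufa4l2, Cox7a2l, Atp5s and Atp5sl are counted with the complex of their name although none of them is a subunit of it in the strict sense.

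All animals were male wild-type C57BL/6N mice that underwent transient occlusion of the middle cerebral artery for 60 min, a model of ischemic stroke with reperfusion. The 15-HETrE group received this hydroxylated fatty acid intravenously at 24, 48 and 72 h (600 ng in 150 µL of phosphate-buffered saline), and the vehicle group received the saline alone on the same schedule. On day 4 the tissue bordering the infarct was digested with pronase for 75 min, and cells with Thy1 on the surface but without ACSA2, CD31, CD45 and O4 were collected as neurons. There were 3 RNA-seq libraries per group. The age of the animals and the number of animals behind a library are not stated in the labels, so p-values describe only how these libraries vary, and that variation may be technical.

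Electrons from NADH enter the chain at complex I and those from succinate at complex II, pass through ubiquinone to complex III and through cytochrome c to complex IV, where oxygen is reduced. Complexes I, III and IV pump protons, and complex V lets them flow back to make ATP. Neurons depend on this route for most of the ATP that restores ion gradients after firing, and ischemia stops it at complex IV by removing oxygen. Every complex except complex II also has subunits encoded in mitochondrial DNA, which were not analysed here.

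The libraries held 5405245 to 22558400 reads assigned to genes, and the shallowest in each group was the one whose name says combined (7993084 reads in 15-HETrE combined and 5405245 in vehicle combined). The other libraries are 15-HETrE 1 and 15-HETrE unnumbered, and vehicle 1 and vehicle 2. Column names carry 3 prefixes: 15-HETrE 1, vehicle 1 and vehicle 2 share the first, 15-HETrE unnumbered has the second, and each group has 1 combined library; the meaning of the prefixes is unknown here. Markers of the sorted cell type were present, but so were those of other types. All 10 pan-neuronal markers were detected in every library, with a summed level of 3197 to 6069 CPM in 15-HETrE libraries and 1930 to 3280 CPM in vehicle libraries. Of these 10, 9 were higher with 15-HETrE, with a median log2 difference (15-HETrE minus vehicle) of 0.93. For 3 the groups did not overlap, all higher, beside 6.84% of all genes, and 0 passed the adjusted test used below. Summed over 7 oligodendrocyte markers, the level was 4763 to 13036 CPM in 15-HETrE libraries and 5293 to 8390.4 CPM in vehicle libraries, from a sort that left out O4-positive cells. Summed fibroblast markers reached 1164 to 1743 CPM with 15-HETrE and 1449 to 9130 CPM with vehicle. Without Pdgfra, which oligodendrocyte precursors also express, the sums were 129, 1316 and 32.7 CPM in the 15-HETrE libraries 1, unnumbered and combined, against 8251, 6160 and 66.4 CPM in the vehicle libraries 1, 2 and combined; they are highest in vehicle 1 and 2 and low in both combined libraries. Summed pericyte and smooth muscle markers reached 539 to 982 CPM with 15-HETrE and 1263 to 1629 CPM with vehicle. Summed astrocyte markers ranged over 1414 to 20749 CPM with 15-HETrE and 665 to 7687 CPM with vehicle, and the combined library was the highest of each group. In such bulk samples, fewer cells of a type and less RNA per cell cannot be told apart. Levels given below are those of whole libraries and not of neurons alone.

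Respiratory chain genes differed little between the groups. The median log2 difference of the 79 genes, 15-HETrE minus vehicle on the log2(CPM + 1) scale, was 0.00, beside 0.02 over all 14523 genes kept; 41 genes were on the positive side and 38 on the negative side. No member passed limma's test with Benjamini-Hochberg adjustment over all genes (0 of 79), and the background over all genes was 0%; the smallest adjusted p among members, that of Cox6a2, was 0.425. At an unadjusted limma p under 0.05 there were 3 members, or 3.8%, beside 9.5% of all genes. All 3 were lower with 15-HETrE, beside 5.23% of all genes in that direction, and 0 were higher, beside 4.27%. On recovered reads, edgeR (quasi-likelihood) gave 4 members at an unadjusted p under 0.05, beside 8.48% of all genes, and 0 after adjustment. DESeq2 called 1 member after adjustment, Cox6a2, beside 1.14% of all genes. Cox6a2 is also among the 3 at a low p and the 6 separated members below, and it reached the mean of 1 CPM only through the vehicle libraries, so a lower level with 15-HETrE was fixed by that minimum. Groups were fully separated for 6 members, or 7.59%, beside 15.2% of all genes, a smaller share than in the background. Of these, 2 were higher with 15-HETrE, beside 6.84% of all genes, and 4 were lower, beside 8.32% of all genes. Differences of at most 0.5 in either direction were found for 64 of 79 members (81.0%) and for 57.5% of all genes. Members were also less variable between libraries of a group, with a median pooled SD of 0.42 on the log2 scale beside 0.56 over all genes, and their median level of 38.7 CPM was above the 23.3 CPM of all genes.

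**Figure D1:**
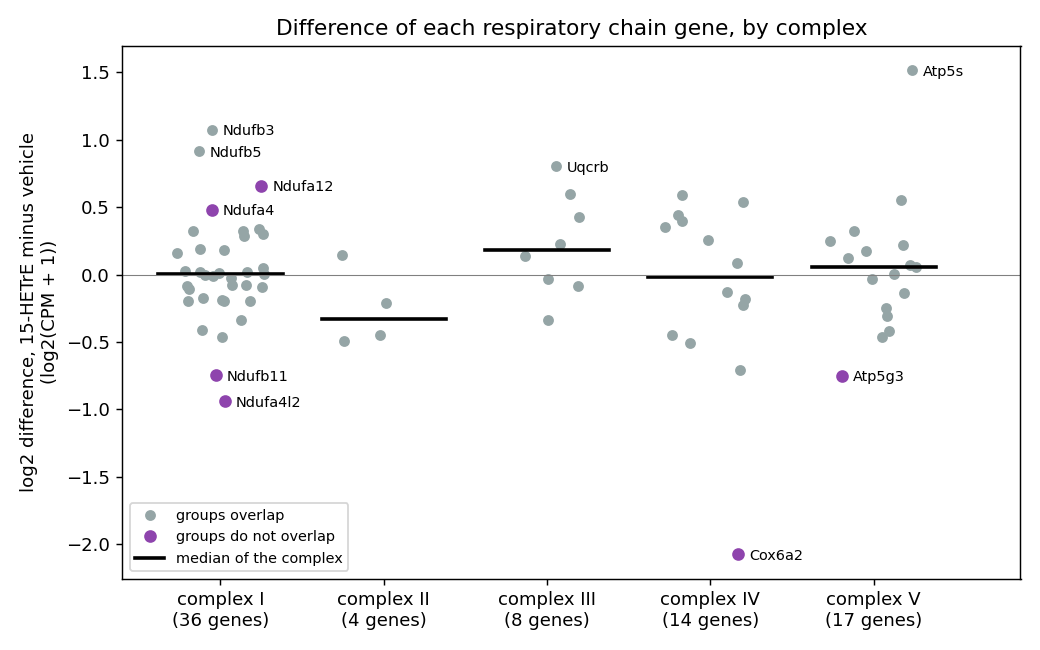
Log2 difference (15-HETrE minus vehicle, log2(CPM + 1)) of each of the 79 respiratory chain genes, by complex; points are genes, black lines are medians of a complex, and purple points are the 6 genes whose libraries did not overlap between groups. Medians lie between -0.33 in complex II and 0.18 in complex III, and Cox6a2 stands lowest at -2.08.

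By complex, the median log2 difference was 0.00 in complex I, -0.33 in complex II, 0.18 in complex III, -0.02 in complex IV and 0.06 in complex V. With a minimum of 5 CPM complex IV was at 0.26, above complex III, so the order of the complexes depends on the minimum. The order also depends on the assignment of genes. An unplanned alternative put Ndufa4 in complex IV and left out Ndufa4l2, Cox7a2l, Atp5s and Atp5sl. Complex IV was then at 0.17 and complex V at 0.00. Summed over the 79 genes, the chain reached 4360 CPM in 15-HETrE 1, 3894 in 15-HETrE unnumbered and 4995 in 15-HETrE combined, against 4703 in vehicle 1, 4386 in vehicle 2 and 3981 in vehicle combined. The ranges of the groups overlap, and the highest and the lowest sums both belong to 15-HETrE libraries. Cytosolic ribosomal protein genes, another group of short and abundant transcripts, were set beside them. Their median difference was -0.65 over 72 genes, with 34 at an unadjusted limma p under 0.05 and all 34 lower with 15-HETrE, beside 5.23% of all genes in that direction; none passed the adjusted test. Their median difference was -0.998 within the first prefix and -0.02 between the combined libraries, and vehicle 1 and 2 are also the libraries with the high fibroblast marker sums; the part of those cells was not tested.

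**Figure D2:**
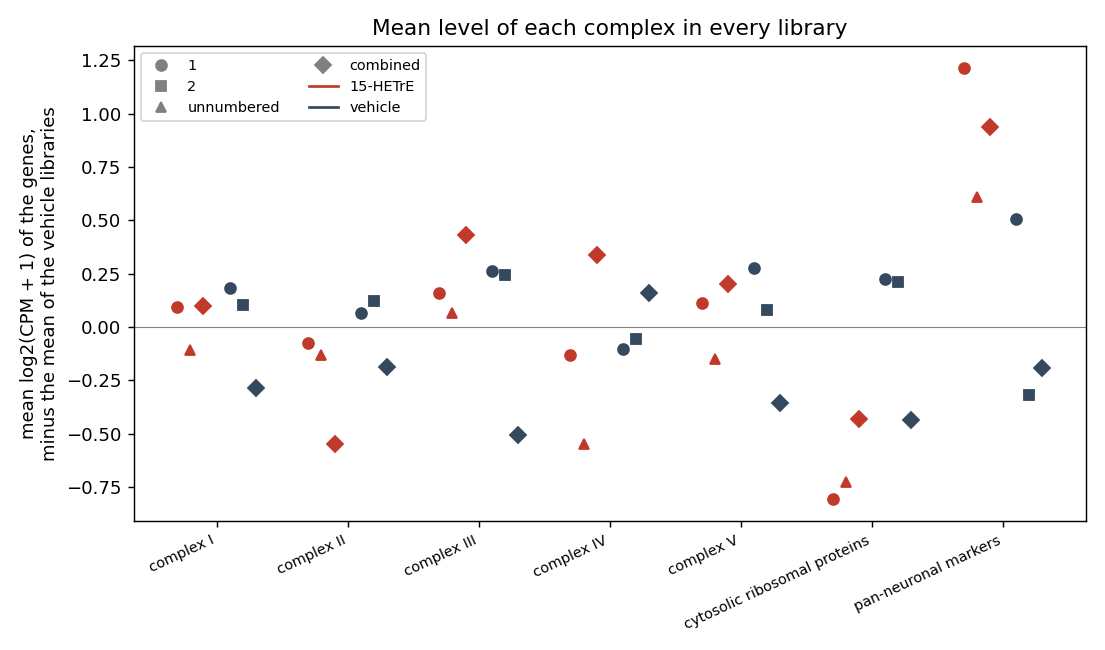
Mean log2(CPM + 1) of the genes of each complex, of cytosolic ribosomal proteins and of pan-neuronal markers in every library, minus the mean of the 3 vehicle libraries; red symbols are 15-HETrE, dark symbols vehicle, and the symbol gives the library. In each of the 5 complexes the 2 groups overlap, and vehicle combined is the lowest vehicle library in complexes I, II, III and V but the highest in complex IV.

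Complex I takes electrons from NADH. Its N module, which binds NADH, had a median log2 difference of -0.02 over 8 genes, the Q module, which hands electrons to ubiquinone, 0.03 over 7 genes, and the membrane arm, which pumps protons, -0.00 over 19 genes. Ndufa10, an accessory subunit of the membrane arm and among the highest of complex I in CPM, stood at 79.4, 54.9 and 93.0 CPM in the 15-HETrE libraries 1, unnumbered and combined, against 98.8, 78.7 and 63.1 CPM in the vehicle libraries 1, 2 and combined. The groups overlap, and the log2 difference was -0.09.

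Ndufa12, an accessory subunit of the N module side that is needed to complete assembly, was at 45.8, 60.0 and 68.3 CPM in the 15-HETrE libraries 1, unnumbered and combined, against 36.5, 40.7 and 31.1 CPM in the vehicle libraries 1, 2 and combined. Every 15-HETrE library was above every vehicle library. Its means were 58.0 ± 11.4 CPM with 15-HETrE and 36.1 ± 4.83 CPM with vehicle (SD, n = 3 each), and the log2 difference was 0.66 with a standard error of 0.30 (limma adjusted p = 0.531). Within the first prefix the difference was 0.24, and between the combined libraries it was 1.11.

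Ndufb11, an X-linked subunit of the membrane arm, had 28.1, 21.8 and 22.6 CPM in the 15-HETrE libraries 1, unnumbered and combined, against 38.5, 34.1 and 52.3 CPM in the vehicle libraries 1, 2 and combined. All 15-HETrE libraries lay below all vehicle libraries. Means were 24.2 ± 3.42 CPM with 15-HETrE and 41.7 ± 9.50 CPM with vehicle, and the log2 difference was -0.75 with a standard error of 0.34 (limma adjusted p = 0.525). The gene (chromosome X, 20615326 to 20617619, minus strand, GRCm38) shares 117 exon bases with Rbm10 on the opposite strand. Whether counting used strand is not stated, so reads in those bases may come from either gene; Rbm10 was at 39.6, 40.5 and 31.4 CPM with 15-HETrE, against 41.6, 36.2 and 29.5 CPM with vehicle. A near-identical copy, Gm6444, matches 50.2% of the Ndufb11 mRNA at 96.9% identity, so the level of Ndufb11 is uncertain to that extent.

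Ndufb3 and Ndufb5, membrane arm subunits, had the highest positive differences in complex I, 1.07 and 0.91, and in both a single library sets the value. Ndufb3 was at 21.7, 21.9 and 16.1 CPM with 15-HETrE, against 19.7, 14.4 and 1.98 CPM in the vehicle libraries 1, 2 and combined. Ndufb5 was at 61.5, 35.9 and 57.7 CPM with 15-HETrE, against 62.7, 44.7 and 5.93 CPM with vehicle. Vehicle combined is far below the other vehicle libraries in both genes, and the groups overlap. Without vehicle combined, the Ndufb3 difference was 0.21.

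Ndufa4 and Ndufa4l2 carry complex I names. Ndufa4 copurifies with complex IV and is now counted as a subunit of it, and its paralog Ndufa4l2 is a target of hypoxia signalling that is enriched in brain pericytes. Ndufa4 reached 90.9, 71.2 and 78.9 CPM in the 15-HETrE libraries 1, unnumbered and combined, against 61.1, 70.0 and 43.3 CPM in the vehicle libraries 1, 2 and combined. Every 15-HETrE library was above every vehicle library, narrowly between 15-HETrE unnumbered and vehicle 2, and the log2 difference was 0.48 with a standard error of 0.28 (limma adjusted p = 0.618).

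Ndufa4l2 was at 1.5, 5.91 and 7.03 CPM in the 15-HETrE libraries 1, unnumbered and combined, against 8.04, 9.67 and 9.17 CPM in the vehicle libraries 1, 2 and combined. Here every 15-HETrE library was below every vehicle library, with 15-HETrE 1 far below the rest. The log2 difference was -0.94 with a standard error of 0.63 (limma adjusted p = 0.66), and limma with library weights, which gave 15-HETrE 1 a weight of 3.16, returned -1.65 with an adjusted p of 0.0204, in a range of 0.0204 to 0.917 over 21 alternatives; 16.7% of all genes passed under those weights. As a share of Ndufa4 and Ndufa4l2 reads together, Ndufa4l2 made up 1.63%, 7.66% and 8.18% with 15-HETrE, against 11.6%, 12.1% and 17.5% with vehicle. Of 10 markers of pericytes and smooth muscle, 6 had an unadjusted limma p under 0.05. All 6 were lower with 15-HETrE, beside 5.23% of all genes in that direction. The smallest limma adjusted p of the 10 was 0.394. Myh11 was higher, with a log2 difference of 0.42, and Acta2 was at -0.15. The summed level of these 10 markers was also lowest in 15-HETrE 1, at 539 CPM. Their part in the Ndufa4l2 result was not tested. The gene (chromosome 10, 127514967 to 127517154, plus strand) shares 32 exon bases with Shmt2 on the opposite strand.

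Complex II, succinate dehydrogenase, is also an enzyme of the citric acid cycle. All 4 subunits were kept, and in each the groups overlap. Sdha, the flavoprotein that oxidises succinate, stood at 150.6, 144.7 and 156.8 CPM with 15-HETrE, against 150.4, 135.2 and 124.4 CPM with vehicle. Sdhb, the iron-sulfur subunit, stood at 48.7, 46.9 and 31.6 CPM in the 15-HETrE libraries 1, unnumbered and combined, against 59.5, 54.9 and 34.3 CPM in the vehicle libraries 1, 2 and combined, and both combined libraries were low. Sdhc, a membrane anchor, stood at 37.0, 48.6 and 19.3 CPM with 15-HETrE, against 41.3, 45.5 and 48.6 CPM with vehicle. Sdhd, the other anchor, stood at 26.1, 18.1 and 18.9 CPM with 15-HETrE, against 28.6, 36.6 and 25 CPM with vehicle; 15-HETrE 1 alone lies within the vehicle range. The log2 differences were 0.14, -0.21, -0.45 and -0.49, with standard errors of 0.22, 0.33, 0.38 and 0.37, and limma adjusted p-values were 0.857, 0.862, 0.723 and 0.696. The median of complex II was -0.05 without 15-HETrE combined.

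Complex III passes electrons from ubiquinol to cytochrome c. The core proteins and the Rieske iron-sulfur protein (Uqcrc1, Uqcrc2, Uqcrfs1) had a median log2 difference of -0.08, and the 5 small subunits one of 0.43. Within the first prefix these medians were -0.11 and -0.0074, and between the combined libraries they were 0.19 and 0.65. Uqcrc1, a core protein and the highest in CPM, stood at 103.0, 117.9 and 151.0 CPM with 15-HETrE, against 151.7, 129.4 and 69.8 CPM with vehicle. The Rieske protein Uqcrfs1, which takes the first electron from ubiquinol, stood at 64.4, 49.1 and 68.5 CPM with 15-HETrE, against 63.9, 76.1 and 90.3 CPM with vehicle. The groups overlap in both genes.

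Among the small subunits, Uqcrb, which helps bind ubiquinone, was at 38.6, 32.9 and 41.5 CPM in the 15-HETrE libraries 1, unnumbered and combined, against 33.5, 45 and 5.75 CPM in the vehicle libraries 1, 2 and combined. Uqcrq, another small subunit, was at 32.2, 25.1 and 38.1 CPM with 15-HETrE, against 37.6, 32.7 and 6.47 CPM with vehicle. Once more vehicle combined alone is low. The hinge protein Uqcrh stood at 65.2, 64.1 and 91.4 CPM with 15-HETrE, against 86.2, 81.9 and 57.9 CPM with vehicle, and Uqcr11 at 27.7, 39.9 and 37.6 CPM with 15-HETrE, against 25.9, 21 and 30.6 CPM with vehicle. The log2 differences of Uqcrb, Uqcrq, Uqcrh and Uqcr11 were 0.81, 0.60, -0.03 and 0.43. Without vehicle combined the median of complex III was -0.17, and without 15-HETrE combined it was -0.01, so its sign turned when either combined library was left out; the Uqcrb and Uqcrq differences became -0.05 and -0.16. Uqcrb also has 3 near-identical copies in the genome.

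Complex IV, cytochrome c oxidase, reduces oxygen. Its 10 general nuclear subunits had a median log2 difference of 0.30, and 7 were on the positive side. That median was 0.17 within the first prefix and 0.57 between the combined libraries. Cox6a1 was the highest member of the complex in CPM, with 143.3, 142.9 and 232.9 CPM in the 15-HETrE libraries 1, unnumbered and combined, against 79.4, 108.1 and 161.5 CPM in the vehicle libraries 1, 2 and combined; the combined library was the highest of each group. Its log2 difference was 0.59 with a standard error of 0.32 (limma adjusted p = 0.602), 0.62 within the first prefix and 0.53 between the combined libraries. Cox4i1, the subunit at which ATP inhibits the enzyme, stood at 113.4, 102.4 and 225.2 CPM with 15-HETrE, against 103.5, 101.7 and 97.8 CPM with vehicle, and Cox6c, a small membrane subunit, at 96.9, 89.6 and 196.5 CPM with 15-HETrE, against 94.2, 84.8 and 68.5 CPM with vehicle. In both, 15-HETrE combined stands above the other 5 libraries. Cox8a, a small membrane subunit, stood at 96.6, 42.0 and 213.6 CPM with 15-HETrE, against 46.7, 49.97 and 176.1 CPM with vehicle, so that both combined libraries were high. The summed level of complex IV was 774, 638 and 1269 CPM with 15-HETrE, against 656, 658 and 870 CPM with vehicle.

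Several subunits of complex IV have a second gene that is used in muscle, testis or hypoxic tissue. Of 7 such tissue isoforms, Cox4i2, Cox6a2 and Cox6b2 were kept and Cox7a1, Cox7b2, Cox8b and Cox8c were not. The members just above the 1 CPM minimum were Cox6b2 and Cox6a2, with means of 1.71 and 1.88 CPM over the 6 libraries, and those just below were Cox7a1 and Cox7b2, with 0.39 and 0.053 CPM. Cox7a1, the muscle isoform of Cox7a2, was at 0.32, 0 and 0 CPM with 15-HETrE, against 0.33, 0.090 and 1.62 CPM with vehicle. Ndufs5 and Cox8c had no read, and Cox8b, the muscle isoform of Cox8a, had 1 read, in vehicle 2.

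Cox6a2, known as the heart and skeletal muscle isoform of Cox6a1 and found in the brain mainly in parvalbumin interneurons, had the largest difference of all members. It had 4, 2 and 0 reads in 15-HETrE 1, unnumbered and combined, against 68, 77 and 24 reads in the vehicle libraries 1, 2 and combined. In CPM these are 0.18, 0.12 and 0, against 3.18, 3.46 and 4.32. The groups lie far apart, and the gene is low in both. It passed the 1 CPM minimum only through the vehicle libraries, so a difference in this direction was required of it at this level. The log2 difference was -2.08 with a standard error of 0.65 (limma unadjusted p = 0.00968, adjusted p = 0.425), -1.87 within the first prefix and -2.41 between the combined libraries. On recovered reads, DESeq2 gave an adjusted p of 0.0418 and edgeR one of 0.487, within a range of 0.00972 to 0.910 over 20 alternatives. Pooled over libraries, 6 reads with 15-HETrE against 169 with vehicle give a ratio of 0.038 after depth, with a 95% interval of 0.014 to 0.084 that covers counting error only. As a share of Cox6a1 and Cox6a2 reads together, Cox6a2 made up 0.13%, 0.083% and 0% with 15-HETrE, against 3.85%, 3.10% and 2.60% with vehicle; the exact upper limit in 15-HETrE combined was 0.214%.

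The Cox6a2 gene (chromosome 7, 128205435 to 128206387, minus strand) shares 70 exon bases with Itgad, an integrin of leukocytes, on the opposite strand. Itgad was at 1.41, 2.45 and 0 CPM with 15-HETrE, against 5.66, 13.4 and 0 CPM with vehicle. In vehicle combined Itgad had no read and Cox6a2 had 24. Parvalbumin (Pvalb) was at 3.64, 7.28 and 1.76 CPM with 15-HETrE, against 2.80, 3.24 and 30.6 CPM with vehicle, and its groups overlap. The summed pericyte and smooth muscle markers, lower in every 15-HETrE library as given above, also separate the groups in the same direction as Cox6a2, and their part in it was not tested.

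Cox4i2, the isoform of Cox4i1 that is used in lung and in brain pericytes and responds to hypoxia, was at 0.73, 0 and 4.46 CPM with 15-HETrE, against 1.59, 2.43 and 3.60 CPM with vehicle. Cox6b2, the testis isoform of Cox6b1, was at 1.82, 0 and 2.57 CPM with 15-HETrE, against 1.87, 2.38 and 1.62 CPM with vehicle. Both had no read in 15-HETrE unnumbered, and the groups overlap. Their ubiquitous partners overlapped too: Cox6b1 stood at 29.7, 28.7 and 49.2 CPM with 15-HETrE, against 37.3, 30.5 and 15.6 CPM with vehicle, and Cox7a2 at 51.0, 44.1 and 46.2 CPM with 15-HETrE, against 52.9, 46.1 and 69.2 CPM with vehicle. Cox7a2l, known as a factor that can join complex III to complex IV in supercomplexes, was at 39.7, 38.3 and 50.6 CPM with 15-HETrE, against 50.4, 40.6 and 54.9 CPM with vehicle. Whether it does so in the strain used here was not tested.

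**Figure D3:**
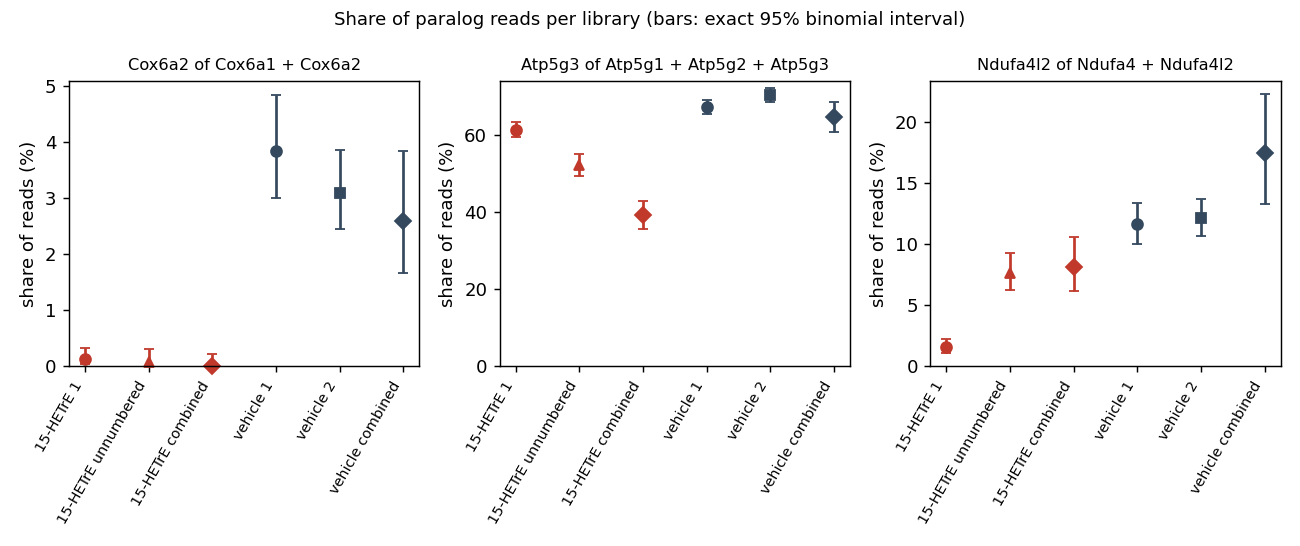
Share of reads (%) taken by Cox6a2, Atp5g3 and Ndufa4l2 among their paralogs in each library; red is 15-HETrE, dark is vehicle, and bars are exact 95% binomial intervals (counting error only). In each panel all 3 15-HETrE libraries lie below all 3 vehicle libraries. The genes drawn were already lower without overlap in CPM, so this separation adds no further support. Shares overlap in the pairs not drawn. Cox4i2 took 0.64%, 0% and 1.94% beside Cox4i1 with 15-HETrE, against 1.51%, 2.33% and 3.55% with vehicle. Cox6b2 took 5.78%, 0% and 4.96% beside Cox6b1 with 15-HETrE, against 4.77%, 7.24% and 9.38% with vehicle.

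Complex V makes ATP in its F1 head, which is driven by the turning of a ring of c subunits in the membrane. Atp5b, the catalytic beta subunit and the highest of all members in CPM, stood at 409.7, 408.8 and 396.0 CPM with 15-HETrE, against 482.6, 453.9 and 300.9 CPM with vehicle. Atp5a1, the alpha subunit, stood at 341.7, 253.0 and 294.9 CPM with 15-HETrE, against 458.9, 340.8 and 308.4 CPM with vehicle. The groups overlap in both; the log2 differences were 0.00 and -0.31. Over the 5 genes of the F1 head the median was 0.00, over the 3 c-ring genes 0.06, over the 3 other membrane genes 0.18 and over the 4 genes of the peripheral stalk -0.14. Atp5o, the stalk protein that holds the head, stood at 63.4, 40.8 and 60.4 CPM with 15-HETrE, against 76.6, 78.3 and 62.9 CPM with vehicle, and Atp5k, the e subunit of the membrane part, at 23.9, 17.2 and 26.6 CPM with 15-HETrE, against 33.7, 22.9 and 38.5 CPM with vehicle.

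The c subunit is 1 protein after its import signal is removed, and it is encoded by 3 genes, Atp5g1, Atp5g2 and Atp5g3, each with a promoter of its own. The 250 bases before the RefSeq start of each (RefSeq on GRCm38.p6, all on the minus strand) are shown because the 3 genes differ in how their libraries compare: Atp5g3 at chr2:73911327-73911576, Atp5g1 at chr11:96075632-96075881 and Atp5g2 at chr15:102671048-102671297. Capitals mark matches on either strand to letters of motifs of factors known for respiratory genes: TNAAGGTCA for estrogen-related receptors in Atp5g3, and GCGC, any 2 bases, GCGC for NRF1 in Atp5g2. Atp5g1 holds none of the 4 motifs searched.
Atp5g3: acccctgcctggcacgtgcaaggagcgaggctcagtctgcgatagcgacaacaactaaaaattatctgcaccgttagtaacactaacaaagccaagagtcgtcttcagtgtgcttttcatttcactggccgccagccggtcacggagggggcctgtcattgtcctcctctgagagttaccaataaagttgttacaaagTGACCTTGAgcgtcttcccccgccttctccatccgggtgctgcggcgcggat
Atp5g1: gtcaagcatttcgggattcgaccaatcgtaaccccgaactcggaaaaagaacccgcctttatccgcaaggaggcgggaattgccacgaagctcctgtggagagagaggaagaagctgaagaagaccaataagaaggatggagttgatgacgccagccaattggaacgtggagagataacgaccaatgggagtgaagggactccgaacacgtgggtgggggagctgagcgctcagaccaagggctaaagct
Atp5g2: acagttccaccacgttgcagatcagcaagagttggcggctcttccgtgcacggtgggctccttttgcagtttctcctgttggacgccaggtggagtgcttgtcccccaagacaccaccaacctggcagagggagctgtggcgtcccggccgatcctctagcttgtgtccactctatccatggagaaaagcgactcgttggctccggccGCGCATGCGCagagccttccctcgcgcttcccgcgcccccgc

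Atp5g3 was at 65.3, 37.5 and 37.7 CPM in the 15-HETrE libraries 1, unnumbered and combined, against 81.3, 80.5 and 69.1 CPM in the vehicle libraries 1, 2 and combined. All 15-HETrE libraries were below all vehicle libraries, with 15-HETrE 1 close to vehicle combined. Means were 46.8 ± 16.0 CPM with 15-HETrE and 77.0 ± 6.85 CPM with vehicle (SD, n = 3 each); the log2 difference was -0.75 with a standard error of 0.30 (limma unadjusted p = 0.0327, adjusted p = 0.494), -0.30 within the first prefix and -0.86 between the combined libraries. Atp5g1 was at 17.8, 9.37 and 31.0 CPM with 15-HETrE, against 18.7, 11.7 and 6.83 CPM with vehicle, and Atp5g2 at 23.3, 24.9 and 27.6 CPM with 15-HETrE, against 20.8, 22.1 and 30.8 CPM with vehicle. Both overlap between the groups, and their log2 differences were 0.56 and 0.06. Atp5g3 took 61.4%, 52.3% and 39.2% of the c-subunit reads with 15-HETrE, against 67.3%, 70.4% and 64.8% with vehicle. Summed over the 3 genes, the c subunit stood at 106.3, 71.7 and 96.2 CPM with 15-HETrE, against 120.7, 114.3 and 106.6 CPM with vehicle, so that the groups of the sum were adjacent but did not overlap. Atp5g3, a part of this sum, was already lower without overlap, so the separation of the sum adds no further support. Atp5g1 matches the copy Gm10039 at 99.8% identity over 69.0% of its mRNA, and Atp5g2 matches Gm10231 over its whole mRNA, so their counts are uncertain; no such copy was found for Atp5g3.

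Atp5s, also called coupling factor B, and Atp5sl, an assembly factor of complex I, are counted here by name only. Atp5s was at 13.5, 9.13 and 17.6 CPM in the 15-HETrE libraries 1, unnumbered and combined, against 10.9, 8.73 and 0 CPM in the vehicle libraries 1, 2 and combined. Its log2 difference of 1.52, the highest of all members, rests on the absence of reads in vehicle combined, where 3 reads would be 0.54 CPM. Without that library it was 0.37.

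**Figure D4:**
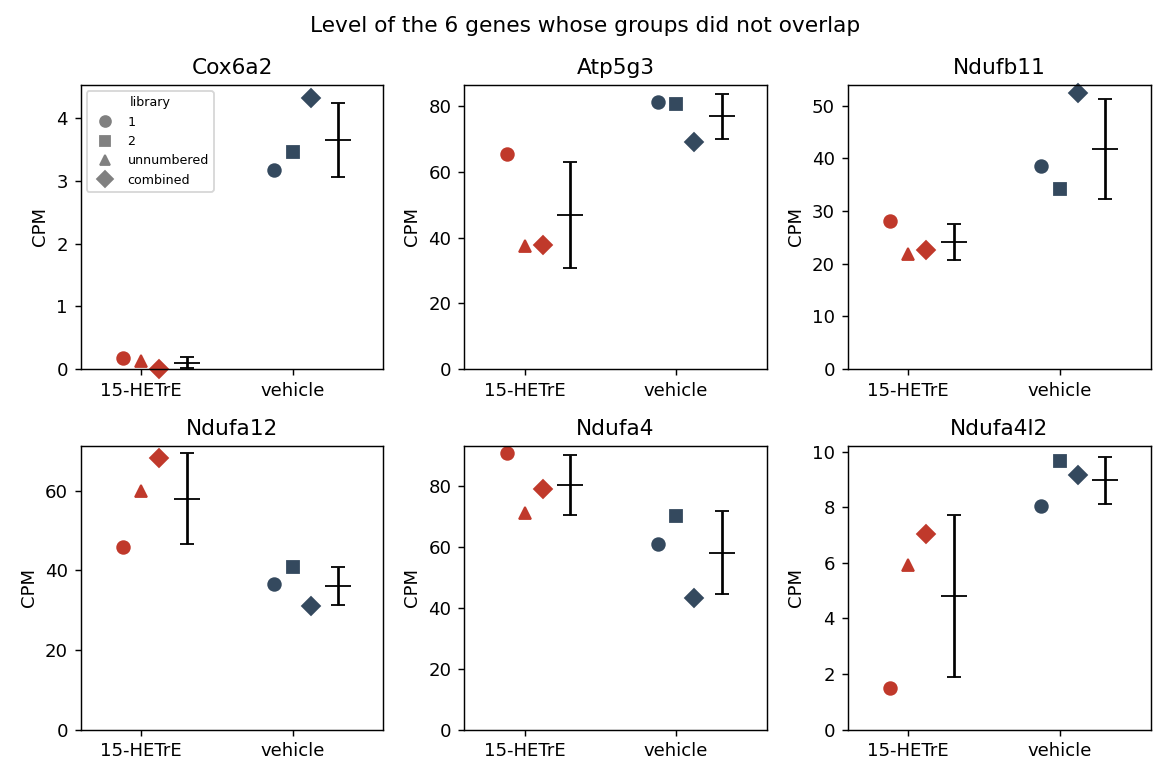
CPM of the 6 respiratory chain genes whose libraries did not overlap between groups; symbols give the library, and the bar beside each group is the mean with the SD of its 3 libraries. Ndufa12 and Ndufa4 are higher with 15-HETrE; Cox6a2, Atp5g3, Ndufb11 and Ndufa4l2 are lower.

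Relative to mRNA length, the chain spans a wide range of levels. Over the 6 libraries, Cox6a1 averaged 253 CPM per kb (139 to 408 between libraries), Atp5b 213 (157 to 252), Cox6c 209 (136 to 391), Cox8a 189 (76.3 to 388) and Cox4i1 166 (131 to 302). The ranges of these 5 neighbours overlap, so their order is not separated from the spread between libraries. Ndufa4, which belongs to complex I by name only, was at 114 CPM per kb (71.1 to 149). The core complex I subunit Ndufs1 lay lower, at 26.7 (20.5 to 33.2). In complex II, Sdha averaged 49.5 CPM per kb (42.9 to 54.1), Sdhb 40.3 (27.7 to 52.1), Sdhd 20.8 (14.7 to 29.7) and Sdhc 12.6 (6.10 to 15.3). The tissue isoforms of complex IV were lowest, with Cox6a2 at 2.76 CPM per kb (0 to 6.35), Cox4i2 at 2.94 (0 to 6.14) and Cox6b2 at 3.68 (0 to 5.52). Ndufs5, a complex I subunit, had no read in any library; its near-identical copy BC002163 (99.4% identity over 60.8% of the mRNA) was at 2.00, 0.78 and 5.14 CPM with 15-HETrE, against 4.16, 3.64 and 1.80 CPM with vehicle. Reads that match both genes could have been left out or split in counting, so no level is given for Ndufs5. In all, 28 of 83 members with a position share exon bases with another gene, and 12 of 83 have a near-identical copy.

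Libraries of the same group differed among themselves. Vehicle combined was the lowest library for 38% of members, beside 28.6% of all genes, and 15-HETrE combined the highest for 35.4%, beside 21.3% of all genes. Vehicle combined lay more than 2 log2 units below the mean of vehicle 1 and vehicle 2 for 5 members (6.33%), beside 10.2% of all genes. These members were Atp5s, Ndufb5, Ndufb3, Uqcrb and Uqcrq. The median log2 difference of the 79 genes was -0.09 within the first prefix and 0.29 between the combined libraries, and the sign agreed between these for 40 of 79 members (50.6%) and for 57.2% of all genes. Complex III had the widest gap between these medians, 0.64 between the combined libraries and -0.11 within the first prefix. The prefix holds too few libraries per group for a test within it.

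**Figure D5:**
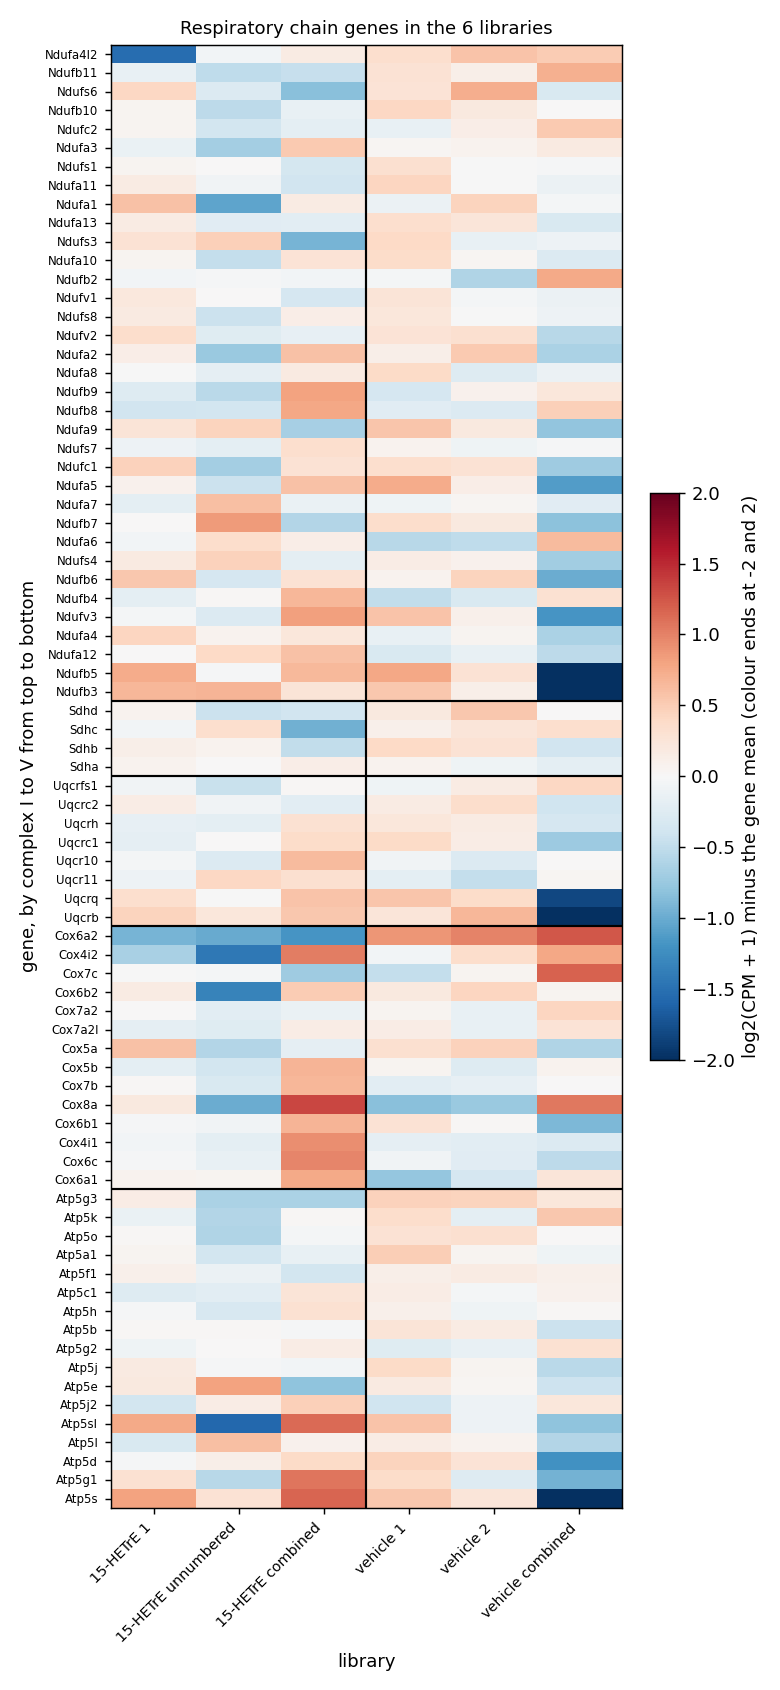
Level of 78 of the 79 genes in the 6 libraries, as log2(CPM + 1) minus the mean of the gene, with genes ordered by complex and by difference within it; lines separate complexes and groups. Vehicle combined shows the darkest blue cells (Ndufb3, Ndufb5, Uqcrb, Uqcrq, Atp5s), and Cox6a2 is blue in all 15-HETrE libraries and red in all vehicle libraries.

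Promoters of 66 of the 84 genes were in the RefSeq table, and the 250 bases before each start were searched on both strands for letters of 4 factors. The NRF1 letters, GCGC and GCGC with any 2 bases between, occurred in 14 of them (21.2%), beside 4.98% of all 32851 promoters in the table. Shares of members are per gene, with a match in any of its listed promoters, and shares of all are per promoter, so their units differ. CCGGAAG, of ETS factors such as GABP, occurred in 12 (18.2%), beside 6.91% of all; AANATGGCG, of YY1, in 3 (4.55%), beside 1.12%; and TNAAGGTCA, of estrogen-related receptors, in 2 (3.03%), beside 1.14%. At least 1 of the 4 was found in 26 of the 66 (39.4%), beside 13% of all. NRF1 letters were found in 7 of 32 promoters of complex I, 2 of 3 of complex II, 0 of 5 of complex III, 1 of 13 of complex IV and 4 of 13 of complex V. The 1 in complex IV, Cox6a1, is shown (chr5:115348959-115349208, minus strand, RefSeq on GRCm38.p6) because this abundant member holds NRF1 letters at 2 places, the first and second capitals, and ETS letters on the other strand, the last capitals. A match describes the letters only.
Cox6a1: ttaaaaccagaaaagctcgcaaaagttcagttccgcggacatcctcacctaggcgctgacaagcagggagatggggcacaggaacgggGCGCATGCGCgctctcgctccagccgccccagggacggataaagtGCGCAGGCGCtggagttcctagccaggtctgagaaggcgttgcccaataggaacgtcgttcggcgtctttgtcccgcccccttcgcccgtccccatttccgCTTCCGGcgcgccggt

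As pooled lists, genes that build or feed the chain also had medians near 0. Of 51 assembly factors, 47 were kept, and their median log2 difference was 0.07. By complex the medians were 0.06 for complex I, -0.01 for complex II and 0.05 for complex IV. Those of complexes III and V, with 6 and 4 genes kept, were 0.25 and 0.40. Of the 47, 1 had an unadjusted limma p under 0.05, beside 9.5% of all genes. That was Ndufaf1, an assembly factor of complex I, at 7.60, 1.07 and 1.22 CPM with 15-HETrE, against 11.8, 7.38 and 11.1 CPM with vehicle; 15-HETrE 1 overlaps the vehicle range, and the log2 difference was -1.68 (limma adjusted p = 0.507). Lyrm7, which guards the Rieske protein before it is inserted, was at 10.4, 9.67 and 16.6 CPM with 15-HETrE, against 6.92, 4.18 and 3.42 CPM with vehicle, with no overlap and a log2 difference of 1.19 (limma adjusted p = 0.546). Timmdc1, a membrane chaperone of complex I, was at 19.2, 9.31 and 8.92 CPM with 15-HETrE, against 22.5, 18.4 and 20.1 CPM with vehicle. The groups overlap in it.

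Cox11, which delivers copper to complex IV, was at 14.3, 7.40 and 15.5 CPM with 15-HETrE, against 9.35, 8.64 and 0 CPM with vehicle, and Taco1, which activates translation of a mitochondrial subunit, was at 6.10, 1.43 and 5.68 CPM with 15-HETrE, against 5.47, 6.03 and 25.7 CPM with vehicle. In both, vehicle combined is the odd library. Sdhaf4 and Sdhaf3, assembly factors of complex II, had log2 differences of 0.21 and -0.23, Uqcc3 of complex III -0.81, and Atpaf1 and Atpif1, the assembly factor and the inhibitor of complex V, 0.47 and 0.32.

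The 17 genes of pyruvate dehydrogenase and the citric acid cycle had a median of -0.09. None had an unadjusted limma p under 0.05, beside 9.5% of all genes. Groups did not overlap for 2 that were higher and 2 that were lower with 15-HETrE, beside 6.84% and 8.32% of all genes. Of these, Suclg1, a subunit of succinyl-CoA ligase, stood at 38.3, 25.1 and 41.1 CPM with 15-HETrE, against 42.8, 44.8 and 79.5 CPM with vehicle, and Idh3b, of isocitrate dehydrogenase, at 79.8, 70.1 and 69.5 CPM with 15-HETrE, against 67.5, 56.7 and 29.0 CPM with vehicle. Neither gene overlaps between groups, and the log2 differences were -0.63 and 0.59. Ndufab1, Cyc1 and Cycs, which belong to the chain but not to the name patterns, had a median of 0.01.

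Among 13 regulators of respiratory genes the median was 0.09. Ppargc1a, the coactivator that drives mitochondrial biogenesis, was at 46.2, 61.5 and 130.8 CPM in the 15-HETrE libraries 1, unnumbered and combined, against 34.3, 20.6 and 74.8 CPM in the vehicle libraries 1, 2 and combined. The groups overlap, since vehicle combined exceeds 15-HETrE 1 and unnumbered, and the log2 difference was 0.92 with a standard error of 0.50 (limma adjusted p = 0.605). Tfb2m, a transcription factor of mitochondrial DNA, was at 15.5, 8.65 and 8.79 CPM with 15-HETrE, against 18.5, 17.5 and 24.3 CPM with vehicle; its groups do not overlap, and the log2 difference was -0.85 (limma adjusted p = 0.597).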

How the data were processed

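RNA-seq of 6 libraries was used, 3 per group. The submitters' processing notes name HISAT2, Trimmomatic, edgeR, featureCounts and mm10, without versions, strand setting or annotation. The values deposited by the authors are a signal: CPM scaled further by a size factor per library, as unequal column sums from 960982 to 1080350 show. In every column 100% of values were whole multiples of the smallest value above 0, within 1e-04 reads, so read counts were recovered for alternatives (14523 genes; edgeR called 0 after adjustment and DESeq2 165). Depth was 5405245 to 22558400 reads. The design assumed plain CPM, and limma was kept for the scaled values.

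Columns were assigned by name; 15-HETrE unnumbered and both combined libraries carry no replicate number. Other per-sample columns numbered 0. Genes averaging 1 CPM or more were kept, and log2(CPM + 1) was fitted with limma 3.58.1 (R 4.3.3) with the group as the only term, a trend on the mean, a two-sided test, Benjamini-Hochberg adjustment over 14523 genes and a threshold of 0.05. Such differences understate the change of low genes. A floor of 3 reads is used, which covers counting error only, since reads carry no molecular identifiers. Members and lists were chosen with earlier results of these data known. Named genes are, per complex, the 4 with the smallest unadjusted p and the 2 with the highest mean, all Sdh genes, isoform pairs, the 2 on either side of the minimum, and 2 per related list by p; some items that this rule takes are not reported here; Ndufs1, Ndufb5, Uqcrc2, Cyc1, Pvalb, Pdgfra and the genes that overlap or copy members were added after their values were seen. Positions and mRNA lengths are from GENCODE M21 (GRCm38, which mm10 names): 23358 symbols matched directly, 699 through RefSeq synonyms, and 23963 had 1 position. Near-identical copies match at least 50% of an mRNA at 95% identity or more. Alternatives used edgeR 4.0.16, DESeq2 1.42.0, other scalings, filters, pseudocounts, library weights and fewer libraries; the scripts were tested on simulated data.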

Additional observations from a re-analysis of the deposited data

How the results depend on the processing

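No paired analysis was possible because the columns of the groups share only replicate number 1; the name prefix, fitted as a batch term instead, called 0 members and 8 of all genes. As the only library with its prefix, 15-HETrE unnumbered adds nothing to the group difference in that fit. Members passing the adjusted test numbered 1 with DESeq2 (Cox6a2) and 2 with library weights (Cox6a2, Ndufa4l2), beside 165 and 2425 of all genes, and 0 when any library was left out. Cox6a2 reached the minimum of 1 CPM only through the vehicle libraries, so its lower level with 15-HETrE was fixed by that minimum. Members without overlap numbered 11 after median-of-ratios scaling (15.4% of all genes), 37 without both combined libraries (46.7% of all genes then) and, with 1 library left out, 13 without 15-HETrE 1 (24.3%), 13 without 15-HETrE unnumbered (28.6%), 16 without 15-HETrE combined (23.7%), 14 without vehicle 1 (24.3%), 8 without vehicle 2 (19.4%) and 19 without vehicle combined (34.4%), beside 6 with all libraries; smaller groups separate more easily, and the percentages are the shares of all genes under the same setting, 15.2% with all libraries. The median of all members stayed between -0.18 and 0.13. Leaving out 1 library moved the median of complex II between -0.43 and -0.050, that of complex III between -0.17 and 0.30 and that of complex IV between -0.22 and 0.21; complex III was -0.26 without both combined libraries and -0.10 with library weights, and complex IV was 0.26 with a minimum of 5 CPM. Direction changed for these named genes, none of which passed the adjusted test under an alternative, and the cause was not tested; the nearest, Cox8a, had an adjusted p of 0.0636 with library weights, in a range of 0.0636 to 0.994. With library weights, Atp5b was -0.16, Uqcrq -0.023, Uqcrb -0.0021, Cox6b1 -0.025, Cox7a2 0.022 and Uqcrc1 -0.28. Without both combined libraries, Atp5b was -0.19, Uqcrq -0.29, Atp5g1 -0.18, Uqcrb -0.12, Cox6b1 -0.20 and Uqcrc1 -0.34. With the name prefix as a batch term, Ndufa10 was 0.15, Atp5g2 -0.00059, Uqcrh 0.072 and Cox6b2 0.11. Atp5b was -0.019 with DESeq2, -0.024 with edgeR, -0.012 with library total scaling and -0.12 after quantile normalization, and Uqcrh was 0.11 when centred on transcript length. Leaving out 1 library gave ranges of -0.25 to 0.12 for Ndufa10, -0.21 to 0.13 for Atp5b, -0.16 to 1.03 for Uqcrq, -0.048 to 1.34 for Uqcrb, -0.048 to 0.22 for Atp5g2, -0.22 to 0.97 for Cox8a, -0.21 to 0.074 for Uqcrh, -0.81 to 0.11 for Cox6b2 and -0.19 to 0.36 for Uqcrc1. For Cox6a2 all alternatives gave -5.02 to -0.76, for Atp5g3 -1.01 to -0.47, for Ndufb11 -0.88 to -0.42, for Ndufa12 0.33 to 0.82, for Ndufa4 0.29 to 0.63 and for Ndufa4l2 -1.65 to -0.42, each with its sign kept. These 6 are the genes whose groups did not overlap. Leaving out libraries or changing the pseudocount could therefore not turn their sign. Depth limits the combined libraries, where 3 reads equal 0.41 CPM with 15-HETrE and 0.54 CPM with vehicle.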
